A study of Macaca mulatta with 2 samples.

Results

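The genes described here are IGFBP6, GSN, PI16, PLA2G2A and SCARA5, a set of secreted or fibroblast-associated genes that had stood out for their restricted position in the back of the macaque eye. They were taken by gene symbol, and all 5 were found among the 26533 genes and transgenes of the reference in both sections. The genes were chosen by their measured levels across the layers of these same sections, so those levels are given as a description and carry no test. Visium spatial transcriptomics was used, in which spots of 55 μm, spaced 100 μm apart, capture the 3′ ends of polyadenylated RNA from a tissue section, and each captured molecule is counted once as a unique molecular identifier (UMI).

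The 2 sections came from the right eyes of 2 wild-type male Macaca mulatta, 1 section per animal, labelled uninjected because the punch lay outside the injected blebs. Both right eyes had nonetheless undergone vitrectomy and subretinal injection elsewhere, NHP1 (aged 5 years) with AAV2-CAG-hRPE65. NHP2 (aged 6 years) had AAV8-GRK1-hRPGR in one bleb and, in another, AAV8-GRK1-mScarlet as reporter. The GRK1 promoter drives expression in photoreceptors and CAG drives it broadly. Each eye was given 40 mg of triamcinolone, a corticosteroid, beside the globe at surgery, and the globes were collected after 12 weeks. Punches of 4 mm through retina, choroid and sclera were cut at 10 μm, and animal, vector and section cannot be told apart. With 1 section per animal, and spots of a section not being replicates, no p-value was computed. All intervals are 95% intervals that cover counting error only, exact Poisson for levels, Clopper-Pearson for shares of spots and conditional binomial for ratios.

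The sclera is the collagen-rich outer coat of the eye, laid down and maintained by fibroblasts, and the choroid is the pigmented vascular layer between it and the retina. In several tissues the fibroblasts that surround vessels and line outer tissue sheaths are known to express PI16 together with other secreted and matrix genes. IGFBP6 is a secreted protein that binds insulin-like growth factors with a preference for IGF2. GSN encodes gelsolin, which severs and caps actin filaments in the cell and scavenges actin in plasma. PI16 is a membrane-anchored protein of the CAP family, PLA2G2A is a secreted phospholipase A2 that hydrolyses membrane phospholipids, and SCARA5 is a class A scavenger receptor that binds ferritin.

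In the Mmul_10 assembly all 5 are annotated as protein-coding genes on different chromosomes. IGFBP6 (ENSMMUG00000051123) lies at chr11:52661169-52665996 on the plus strand, and GSN (ENSMMUG00000013020) at chr15:21382029-21446664 on the minus strand with 6 annotated transcript starts. PI16 (ENSMMUG00000021977) is at chr4:132485217-132495720 on the minus strand, PLA2G2A (ENSMMUG00000021862) at chr1:204741586-204745798 on the plus strand and SCARA5 (ENSMMUG00000022044) at chr8:28134135-28257453 on the minus strand. The 250 bases before the outermost start of the 3 genes with the most molecules in the sclera are shown from RefSeq on Mmul_10, in the direction of each gene, because these genes lay together over the tissue. Capitals mark any match, on either strand, to TATAAA, to GGAATG (the core bound by TEAD factors) or to TGANTCA. The last is a loosened form of the core bound by AP-1, which has C or G at the middle base. The 3 motifs do not overlap here.
IGFBP6, chr11:52660919-52661168, plus strand: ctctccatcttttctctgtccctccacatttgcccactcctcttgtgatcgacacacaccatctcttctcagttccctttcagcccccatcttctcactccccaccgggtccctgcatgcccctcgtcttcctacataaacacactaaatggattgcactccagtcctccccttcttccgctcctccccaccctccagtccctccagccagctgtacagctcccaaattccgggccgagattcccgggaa
GSN, chr15:21446665-21446914, minus strand: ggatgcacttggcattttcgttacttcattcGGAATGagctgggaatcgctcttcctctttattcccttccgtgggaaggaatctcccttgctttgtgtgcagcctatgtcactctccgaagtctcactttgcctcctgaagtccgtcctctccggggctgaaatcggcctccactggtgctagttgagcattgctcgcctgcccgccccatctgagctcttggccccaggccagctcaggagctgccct
PI16, chr4:132495721-132495970, minus strand: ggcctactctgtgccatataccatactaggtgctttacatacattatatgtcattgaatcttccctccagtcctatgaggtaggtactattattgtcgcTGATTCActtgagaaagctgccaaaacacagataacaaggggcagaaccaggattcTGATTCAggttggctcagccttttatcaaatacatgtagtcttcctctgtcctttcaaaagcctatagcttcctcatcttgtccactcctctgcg
The IGFBP6 window held none of the 3 motifs. The GSN window held GGAATG once, 219 to 214 bases before the start, a motif present in 10.9% of 20782 protein-coding promoters of the same length. The PI16 window held TGANTCA at 2 positions, 151 to 145 and 95 to 89 bases before the start, against 5.15% of all promoters with at least 1 match. Both read TGATTCA, so neither has the C or G of the AP-1 core. TATAAA was present in 9.85% of all promoters. These are matches of letters only, and the 3′ reads do not show which start of GSN, or which of the 2 annotated for PI16, was used.

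NHP1 had 534 spots over tissue with 1484784 UMIs (median 1473.5 per spot) and NHP2 had 470 with 805726 UMIs (median 370.5). Spots were clustered without the 5 genes, and the regions were put into layers by marker lists. In NHP1 341 spots were retina, 74 choroid and 119 sclera. In NHP2 68 were retina, 100 choroid and 208 sclera, and 94 spots of very low depth (median 9.5 UMIs) stayed unnamed. The retina includes some of the pigment epithelium, since 1 region in each section held photoreceptor and pigment epithelium markers together. The choroidal spots held more of these markers. Summed, the pigment epithelium markers stood there at 228 per 10000 in NHP1 and 119 in NHP2, against 49.5 and 67.2 in the retina. The choroidal levels are thus those of choroid and pigment epithelium mixed. How regions were assigned to layers was decided with the regions already in view. The scleral spots carried 11 of 11 tested sclera markers, collagens and small proteoglycans among them, at 2-fold or more over the retina in each section, which restates the naming since these markers defined the layer. Sclera markers were also found in the choroidal spots, summed at 99.6 per 10000 in NHP1 and 119.8 in NHP2, against 231 and 390 in the sclera. With layers set spot by spot from marker sums, 33 of the 74 choroidal spots of NHP1 and 43 of the 100 of NHP2 stayed choroid. The part of this mixing in the choroidal levels of the members was not tested. Because a spot covers several cells, fewer cells of a type and less RNA per cell cannot be told apart.

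IGFBP6, GSN and PI16 each had their highest level in the sclera in both animals, a lower level in the choroid and their lowest in the retina. PLA2G2A had the same order in NHP1. In NHP2 its order rested on 34 scleral, 1 choroidal and 6 retinal molecules. There its sclera over choroid ratio was 5.37 (0.901 to 218) and its choroid over retina ratio 3.92 (0.0852 to 32.3), so the order was not set beyond counting error. SCARA5 departed from this order, with its highest level in the choroid. In NHP1 all 5 members, and in NHP2 all 4 members with enough UMIs to be tested, were at least 2-fold higher in the sclera than in the retina, where 7.68% of 5311 tested genes in NHP1 and 12.4% of 3453 in NHP2 were. A choroidal level at least 2-fold over the retina was reached by all 5 members in NHP1 (9.96% of all tested genes) and by all 4 tested in NHP2 (15.7%). A scleral level at least 2-fold over the choroid was reached by IGFBP6, PI16 and PLA2G2A in NHP1 (11.5%) and by IGFBP6, GSN and PI16 in NHP2 (9.96%). The layers are how the genes were picked, so nothing is read from these counts.

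**Figure D1:**
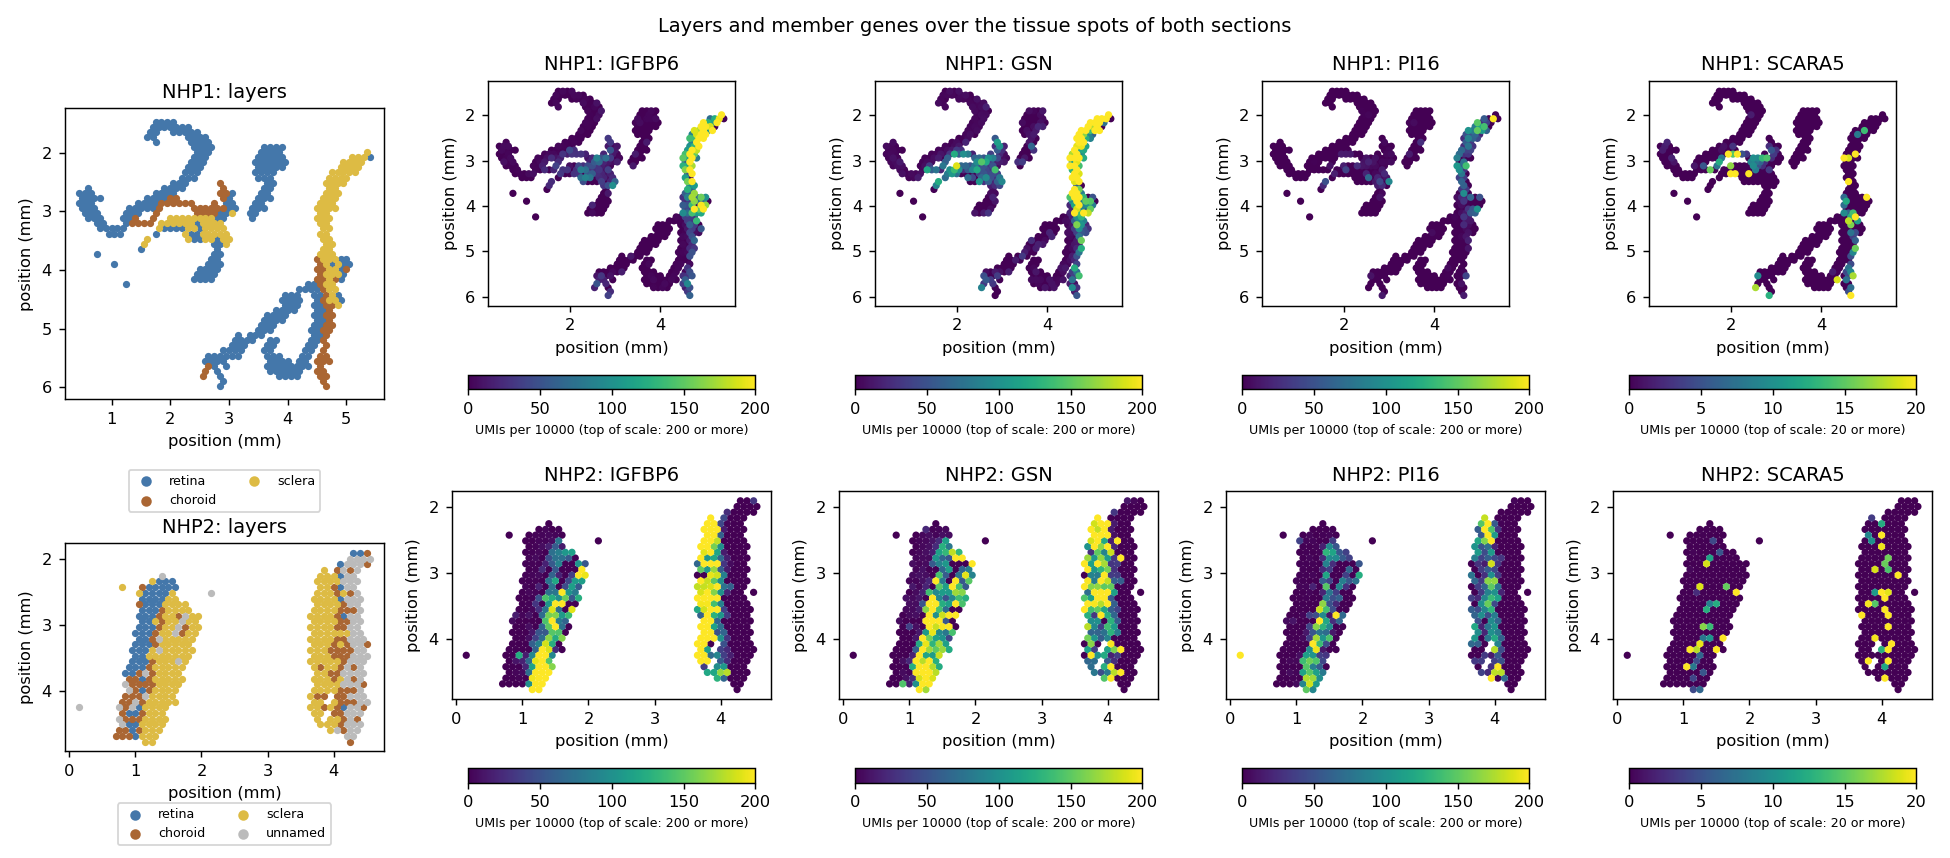
Position of the tissue spots of NHP1 (top) and NHP2 (bottom) in mm, coloured by layer (left) and by UMIs per 10000 UMIs of the spot for IGFBP6, GSN, PI16 and SCARA5, with colour scales that stop at 200 and, for SCARA5, at 20. IGFBP6 and GSN marked most scleral spots, and PI16 was brightest in parts of the sclera. SCARA5 was found in 46 of 74 choroidal and 17 of 119 scleral spots of NHP1. In NHP2 it was found in 15 of 100 choroidal and 38 of 208 scleral spots.

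IGFBP6 gave 748 molecules in the sclera of NHP1 and 2975 in that of NHP2. Its level in UMIs per 10000 UMIs was 2.28 (interval 2.02 to 2.56) in the retina, 34.4 (31.4 to 37.6) in the choroid and 76.5 (71.1 to 82.2) in the sclera of NHP1. The same layers of NHP2 held 2.48 (2.103 to 2.91), 33.4 (26.8 to 41.2) and 180.5 (174 to 187) per 10000. The retinal and choroidal levels of the 2 animals overlapped, and the scleral levels did not. The sclera was 33.6-fold over the retina in NHP1 and 72.7-fold in NHP2. As molecules per spot the ratios were 7.55 and 6.40, which turns the order of the animals, and the pieces of NHP1 gave 51.9 and 10.6. Of all IGFBP6 molecules on tissue, 49.5% in NHP1 and 92.4% in NHP2 lay in scleral spots. Over scleral spots with at least 200 UMIs the lowest, median and highest level was 0, 77.1 and 456 per 10000 in NHP1 and 0, 148 and 559 in NHP2, so single spots ranged widely within the layer.

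GSN followed the same order with a smaller span. It stood at 4.82 (4.45 to 5.23) per 10000 in the retina, 61.1 (57.1 to 65.4) in the choroid and 118 (111 to 125) in the sclera of NHP1. In NHP2 the levels were 6.21 (5.60 to 6.86), 73.3 (63.3 to 84.5) and 177 (171 to 184). The sclera was 24.5-fold over the retina in NHP1 and 28.5-fold in NHP2, and 5.50-fold and 2.51-fold as molecules per spot. Over scleral spots the lowest, median and highest level was 0, 123 and 429 per 10000 in NHP1 and 0, 143 and 469 in NHP2. GSN molecules numbered 1.54 (1.41 to 1.70) for each IGFBP6 molecule in the sclera of NHP1 and 1.78 (1.59 to 1.99) in its choroid, with overlapping intervals. In NHP2 they numbered 0.981 (0.932 to 1.03) in the sclera and 2.20 (1.70 to 2.86) in the choroid, without overlap. In the retina they numbered 2.12 (1.84 to 2.45) in NHP1 and 2.50 (2.07 to 3.04) in NHP2. The balance between both genes thus differed between sclera and retina in each animal, and between sclera and choroid in NHP2.

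PI16 gave 253 molecules in the sclera of NHP1 and 1630 in that of NHP2. NHP1 held 0.321 (0.229 to 0.436) per 10000 in the retina, 3.67 (2.73 to 4.82) in the choroid and 25.9 (22.8 to 29.3) in the sclera. NHP2 held 1.22 (0.963 to 1.54), 30.7 (24.4 to 38.2) and 98.9 (94.1 to 104). Both ratios of sclera to retina came to 80.7, with intervals of 57.6 to 116 in NHP1 and 64.0 to 103 in NHP2, even though every layer of NHP2 was higher. They parted under other scalings, at 26.4 and 39.8 with equal weight per spot and 18.1 and 7.11 as molecules per spot, and NHP1 came to 35.8 in piece 2 and 51.7 without a scleral region led by CHAD. PI16 molecules per IGFBP6 molecule were 0.338 in the sclera and 0.107 in the choroid of NHP1, against 0.548 and 0.920 in NHP2.

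PLA2G2A turned the other way between the animals. NHP1 had 123 molecules in the sclera, or 12.6 (10.5 to 15.004) per 10000, 15 in the choroid (1.08 per 10000) and 36 in the retina (0.288 per 10000). NHP2 had 34 in the sclera, or 2.06 (1.43 to 2.88) per 10000, 1 in the choroid and 6 in the retina, and with 41 molecules in the section it was below the 50 required of a tested gene. The sclera was 43.6-fold over the retina in NHP1 and 21.1-fold (8.74 to 61.3) in NHP2. These came to 16.6 and 10.4 with equal weight per spot and 9.79 and 1.85 as molecules per spot, and to 16.5 in piece 2 of NHP1 and 4.91 in piece 1 of NHP2, the last on 1 retinal molecule. Setting layers spot by spot from marker sums gave 58.7 in NHP2 on 2 retinal molecules.

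SCARA5 was at 0.168 (0.104 to 0.257) per 10000 in the retina, 5.61 (4.43 to 6.9998) in the choroid and 2.04 (1.25 to 3.16) in the sclera of NHP1. NHP2 had 0.0817 (0.0265 to 0.191), 6.91 (4.10 to 10.9) and 2.91 (2.15 to 3.86). The choroid exceeded the sclera by 2.74-fold (1.66 to 4.73) in NHP1, on 78 and 20 molecules, and by 2.37-fold (1.30 to 4.16) in NHP2, on 18 and 48. A choroidal level at least 2-fold over the sclera was found for 14.9% of tested genes in NHP1 and 23% in NHP2. Within tissue pieces the ratio was 2.37 and 3.30 in NHP1. In its piece 1 the intervals of the levels overlapped, at 4.12 to 7.73 in the choroid and 1.25 to 4.22 in the sclera. In NHP2 the ratio was 2.30 on 13 and 23 molecules and 1.81 on 5 and 25, with overlapping intervals of the levels in both of its pieces. It came close to 1 in NHP2 with layers from marker sums (1.10) and with equal weight per spot (1.13). It turned when spots were put into layers one by one from marker sums in NHP1 (0.305-fold) and when molecules per spot were used in NHP2 (0.78-fold).

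**Figure D2:**
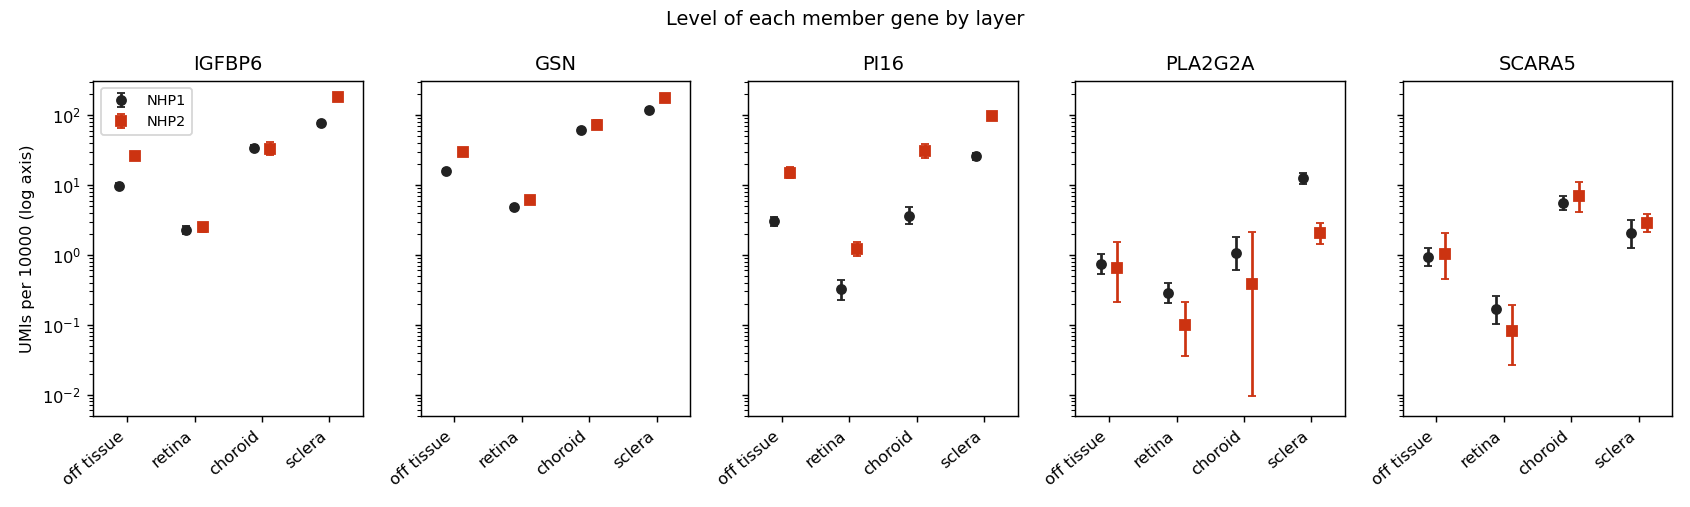
Level of each gene in UMIs per 10000 UMIs on a log axis, off tissue and in the retina, choroid and sclera, for NHP1 (black circles) and NHP2 (red squares), with 95% Poisson intervals. IGFBP6, GSN, PI16 and PLA2G2A were highest in the sclera and SCARA5 in the choroid, and every retinal level lay below the level off tissue. For PLA2G2A in NHP2 the choroidal value rests on 1 molecule.

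The share of spots with a molecule depended on depth. IGFBP6 was seen in 93.3% (87.2 to 97.1) of scleral and 42.8% (37.5 to 48.3) of retinal spots of NHP1, and in 90.4% (85.5 to 94.0) and 72.1% (59.9 to 82.3) in NHP2, where retinal spots had a median of 4439.5 UMIs and scleral spots 588.5. After each spot was thinned to 200 UMIs, the shares were 68.5% of 108 scleral spots and 5.78% of 329 retinal spots in NHP1, and 87.6% of 178 and 5.88% of 68 in NHP2. GSN after thinning was in 82.4% and 12.8% of these spots in NHP1, and in 91.6% and 17.6% in NHP2. PI16 after thinning was in 49.1% of scleral and 1.52% of retinal spots of NHP1, and in 62.9% and 4.41% in NHP2. At this common depth all 3 genes left some scleral spots empty, PI16 the most in each animal.

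Molecules of these genes were also found in spots outside the tissue. Off tissue, where spots held medians of 8 UMIs in NHP1 and 4 in NHP2, IGFBP6 stood at 9.77 (8.94 to 10.7) and 26.1 (22.6 to 30.0) per 10000, and GSN at 16.02 (14.95 to 17.1) and 30.04 (26.3 to 34.2). PI16 off tissue was at 3.04 (2.59 to 3.55) and 15.1 (12.5 to 18.1). Per 10000 UMIs, all 5 retinal levels lay below the level off tissue in both animals. Per spot the retina held more, with IGFBP6 at 0.833 molecules a spot against 0.119 off tissue in NHP1 and 2.24 against 0.0499 in NHP2. Whether the retinal molecules came from the retina or spread from other layers was not tested. In the choroid the intervals overlapped those off tissue for PI16 in NHP1, at 3.67 against 3.04, and for IGFBP6 in NHP2, at 33.4 against 26.1. For PLA2G2A the choroid of NHP1, at 1.08 (0.604 to 1.78) per 10000, had an interval that overlapped the 0.746 (0.530 to 1.02) found off tissue. Its single choroidal molecule in NHP2 could not be set apart from the 5 off tissue either. The scleral interval of PLA2G2A in NHP2, 1.43 to 2.88 per 10000, also overlapped the 0.211 to 1.52 found off tissue.

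IGFBP6, GSN and PI16 were among the most spatially clustered of the genes with at least 50 UMIs. The members were chosen for their levels across the layers of these same sections, so nothing is read from these ranks. Moran's I, which rises to 1 as adjacent spots grow alike and which also reads how depth is spread, was 0.727 for IGFBP6 in NHP1, 4th among 5311 genes, and 0.702 in NHP2, 1st among 3453. GSN had 0.690 and 0.613 and ranked 5th and 3rd. PI16 had 0.589 and 0.599 and ranked 11th and 5th. PLA2G2A had 0.509 in NHP1, in place 14, and 0.149 in NHP2, where its count was too low to be ranked. SCARA5 was less clustered than the other members. It had 0.257 in NHP1, in place 199 and above the median of 0.0591 over tested genes. In NHP2 it had 0.0301, in place 2955 and below the median of 0.0895.

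The scleral level of these genes differed between the animals, and not in 1 direction. NHP2 exceeded NHP1 by 2.36-fold (2.18 to 2.56) for IGFBP6, by 1.499-fold (1.40 to 1.61) for GSN and by 3.82-fold (3.35 to 4.38) for PI16. PLA2G2A was 6.10-fold (4.14 to 9.20) higher in NHP1. SCARA5 did not differ beyond counting error, at 1.42-fold (0.829 to 2.53) higher in NHP2. Among 839 genes tested in the sclera, 13.2% were at least 2-fold higher in NHP2 and 12.6% at least 2-fold higher in NHP1. In the choroid PI16 was 8.38-fold (5.82 to 12.1) higher in NHP2, where 4.85% of 515 genes were at least 2-fold higher, and IGFBP6 did not differ beyond counting error (0.972-fold, 0.764 to 1.22). In the retina PI16 was the one tested member at least 2-fold higher in NHP2, at 3.82-fold (2.57 to 5.76) beside 2.01% of 5974 genes. Off tissue PI16 was also higher in NHP2, at 15.1 per 10000 against 3.04 in NHP1. The choroidal interval of NHP1 overlapped that off tissue, as did that of tissue piece 2 of NHP2. Both retinal levels of PI16 lay below the level off tissue. The part of this background in both ratios was not tested.

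The tissue of each section lay in separate pieces, and levels differed between pieces of 1 animal too. In NHP1 IGFBP6 stood at 127 (117 to 137) per 10000 in the sclera of piece 1 (79 spots) and at 24.3 (20.1 to 29.2) in that of piece 2 (40 spots). In NHP2 it was 201 (189 to 213) in piece 1 (96 spots) and 169.8 (162 to 178) in piece 2 (111 spots). Both pieces of NHP2 were above both pieces of NHP1. PI16 had the same order, at 42.0 and 9.15 per 10000 in the pieces of NHP1 and 96.8 and 100.2 in those of NHP2. PLA2G2A had the opposite one, with 20.3 and 4.58 in NHP1 and 2.41 and 1.88 in NHP2, although the intervals of piece 2 of NHP1 (2.87 to 6.93) and piece 1 of NHP2 (1.32 to 4.04) overlapped. GSN overlapped between the animals, with 177 and 57.6 in NHP1 and 173 and 179.7 in NHP2.

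The lower piece 2 of NHP1 also carried the most retinal RNA. Summed retinal markers stood at 198 per 10000 in its scleral spots, against 92.1 in piece 1, 51.1 and 64.5 in the pieces of NHP2, and 234 in the retina of NHP1 itself. The part of this in the lower level of the members was not tested. PI16 in the choroid of NHP2 varied as well, with 44.1 (33.9 to 56.4) in piece 1 and 14.5 (8.43 to 23.2) in piece 2. Both were above the 4.36 and 2.90 of the pieces of NHP1. However, the interval of piece 2 of NHP2 overlapped the 15.1 (12.5 to 18.1) found off tissue in that animal. The choroidal level of IGFBP6 in that piece, 13.6 (7.79 to 22.1), lay below its 26.1 off tissue.

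**Figure D3:**
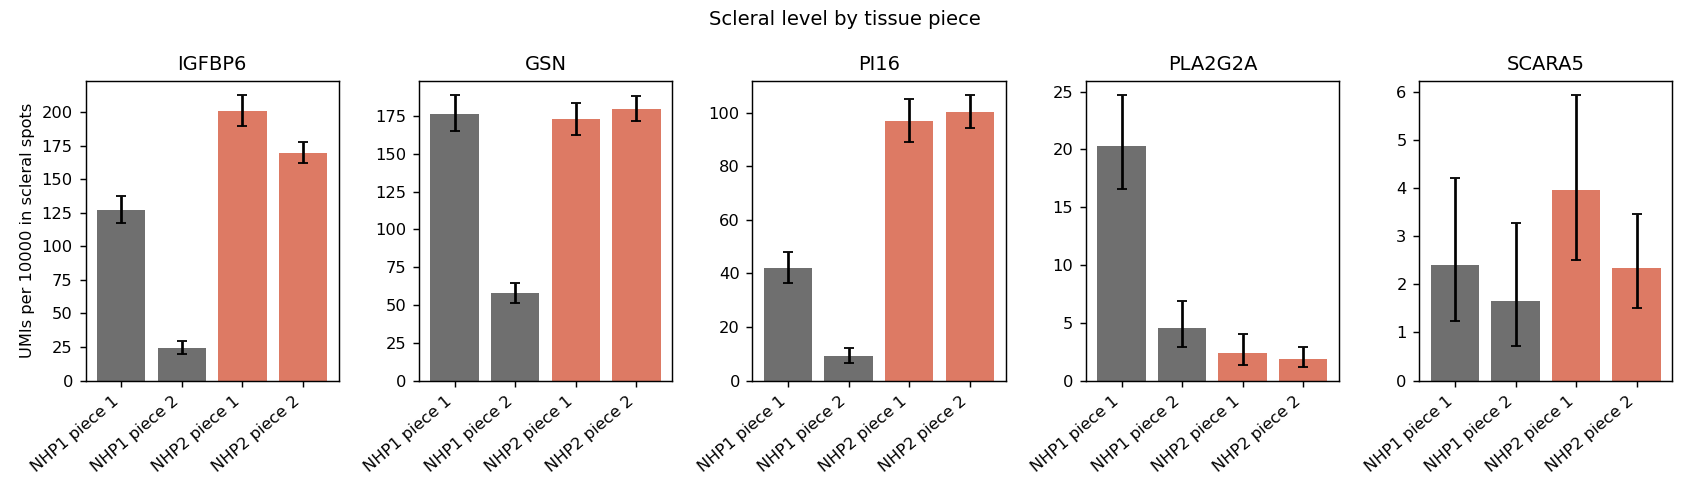
UMIs per 10000 UMIs in the scleral spots of each tissue piece (bars from 0, 95% Poisson intervals), with the pieces of NHP1 in black and those of NHP2 in red. IGFBP6 and PI16 were higher in both pieces of NHP2, PLA2G2A was higher in both pieces of NHP1, and GSN overlapped.

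Within the sclera the members did not share 1 profile. Scleral spots were split at 2 spot spacings from the nearest spot of an inner layer, a split chosen after the outermost planned bin of NHP2 proved to hold 4 spots. In NHP1 only piece 1 reached beyond 2 spacings, and its values are used. There IGFBP6 was 60.0 (49.8 to 71.6) per 10000 in the 27 inner spots and 173 in the 52 outer spots, 2.89-fold higher (2.37 to 3.55). In NHP2 it was 165 (158 to 172) in 147 inner spots and 246 in 60 outer ones, 1.49-fold higher (1.37 to 1.62) and 1.51-fold in each piece taken alone.

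PI16 took opposite directions in the 2 animals. It went from 15.7 (10.8 to 22.2) per 10000 in the inner to 60.2 in the outer sclera of NHP1 piece 1, 3.83-fold (2.62 to 5.77). In NHP2 it went from 108 (103 to 114) to 62.1, 0.574-fold (0.493 to 0.665), with 0.607 in piece 1 and 0.557 in piece 2. The outer levels had overlapping intervals, 51.7 to 69.8 in NHP1 and 53.9 to 71.2 in NHP2, while the inner ones did not overlap. The difference in direction was not tested.

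GSN went from 131 to 208 per 10000 in NHP1 piece 1, 1.58-fold (1.37 to 1.84), and did not differ beyond counting error in NHP2, from 179 to 170.4, 0.952-fold (0.867 to 1.04). PLA2G2A was 2.64-fold (1.61 to 4.49) higher in the outer sclera of NHP1 piece 1 and 2.48-fold (1.14 to 5.19) in NHP2, there on 21 inner and 13 outer molecules. In the pieces of NHP2 taken alone it was 2.68-fold (0.704 to 8.89) and 2.44-fold (0.864 to 6.49), neither beyond counting error. SCARA5 was too rare to place, at 0.692-fold (0.185 to 2.59) and 0.466-fold (0.144 to 1.17). The summed sclera markers were higher outwards in both, by 2.07-fold (1.85 to 2.31) in NHP1 piece 1 and 1.27-fold (1.20 to 1.34) in NHP2. Summed retinal markers stood at 0.368-fold in the outer sclera of NHP1 piece 1 and at 0.904-fold (0.765 to 1.06) in that of NHP2, and their part in these profiles was not tested. IGFBP6 and PLA2G2A had the direction of the sclera markers in each animal, and PI16 had the opposite one in NHP2. APOD, a lipid carrier, also changed direction, at 2.36-fold in NHP1 piece 1 and 0.530-fold (0.319 to 0.838) in NHP2. PTGDS, the prostaglandin D synthase, did too, at 2.23-fold and 0.912-fold (0.850 to 0.977). In piece 1 of NHP2 alone neither differed beyond counting error, while MYOC was at 0.626-fold (0.495 to 0.784). Over both pieces of NHP2 DCN, LUM, COL1A1, FMOD and ANGPTL7 were higher outwards, and MYOC and MGP did not differ beyond counting error.

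**Figure D4:**
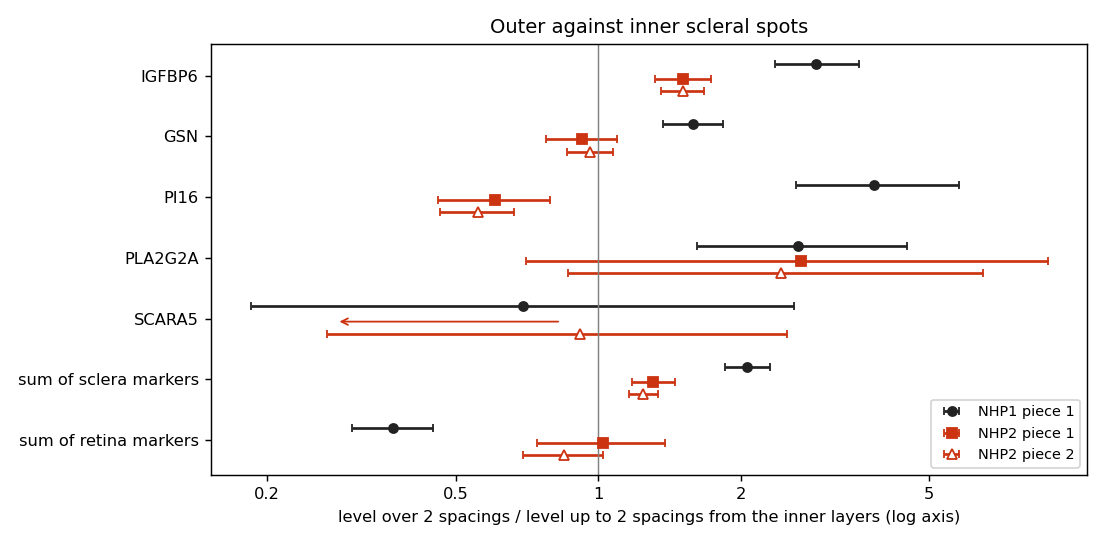
Ratio of the level beyond 2 spot spacings from the inner layers to the level within them, on a log axis, for the 5 genes and the summed sclera and retinal markers in piece 1 of NHP1 (black) and in each piece of NHP2 (red, filled and open), with 95% conditional binomial intervals. IGFBP6 lay above 1 in all 3 pieces, PI16 lay above 1 in NHP1 and below 1 in both pieces of NHP2, and the arrow marks SCARA5 with 0 outer molecules, shown from its upper limit.

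At the level of regions, the 30 spots of NHP1 led by CHAD, the gene of the matrix protein chondroadherin, held the highest scleral level of that animal for each member but SCARA5. IGFBP6 was at 193 (174 to 213) per 10000 there and 45.5 (40.9 to 50.6) in the other scleral region of 89 spots. GSN was at 202 and 95.7, PI16 at 60.9 and 16.6, and PLA2G2A at 24.4 and 9.44. Without the CHAD-led region the animals differed by 3.96-fold for IGFBP6 and 5.97-fold for PI16 in favour of NHP2, and by 4.58-fold for PLA2G2A in favour of NHP1. In NHP2 the 3 scleral regions held IGFBP6 at 189, 173 and 113 and PI16 at 113, 78.7 and 32.2, the last of each in a region of 42 spots with a median of 191.5 UMIs.

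Members also shared spots. IGFBP6 was at 89.1 per 10000 in the 81 scleral spots of NHP1 with a PI16 molecule and at 42.1 in the 38 without, 2.12-fold (1.72 to 2.62). In NHP2 it was 190.5 in 161 spots and 91.0 in 47, 2.09-fold (1.74 to 2.53). The spots with PI16 were deeper in both, so the split also follows depth. SCARA5 showed no such pairing with IGFBP6 in the sclera, where spots with a SCARA5 molecule had IGFBP6 at 0.797-fold (0.653 to 0.966) in NHP1 and 0.938-fold (0.861 to 1.02) in NHP2. In the choroid the same pair stood at 1.53-fold (1.24 to 1.91) in NHP1 and 0.876-fold (0.514 to 1.44) in NHP2. With PI16 as the other gene, SCARA5 in the choroid of NHP1 was at 9.95 per 10000 in the 24 spots with PI16. It was at 3.65 in the 50 without, 2.72-fold (1.70 to 4.38). In the choroid of NHP2 this ratio was 1.76 (0.610 to 5.70) on 12 and 6 molecules. In the sclera it was 2.04 (0.591 to 10.9) in NHP1 and 0.524 (0.233 to 1.38) in NHP2.

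The genes most like IGFBP6 over spots with at least 200 UMIs were GSN, the proteoglycan DCN, AEBP1, the calcification inhibitor MGP and ANGPTL7, with a mean Pearson r of 0.758, 0.758, 0.705, 0.675 and 0.670 over both sections (509 and 306 spots, 1564 genes). For GSN they were IGFBP6, DCN, MGP, AEBP1 and MYOC, with 0.758, 0.738, 0.663, 0.634 and 0.632. These spots share libraries, depth and layer, which all enter these values. Within scleral spots alone (108 and 178) IGFBP6 was most like PTGDS, the prostaglandin D synthase, at a mean r of 0.483, then GSN at 0.475 and MYOC at 0.410. The genes most like SCARA5 over all spots were the endothelin receptor EDNRB at 0.346, CCL26 at 0.332, the melanosome gene PMEL at 0.324, MGP at 0.318 and PZP at 0.314, all weak, with MGP also near IGFBP6 and GSN. The genes nearest to SCARA5 and those within the sclera alone were named after their values had been seen.

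Genes that are known from adventitial fibroblasts were described beside the members from a list of 19. Only 5 in NHP1 and 4 in NHP2 had enough molecules to be tested, and 4 in each section were at least 2-fold higher in the sclera than in the retina (7.68% and 12.4% of all genes tested), with list medians of 15.3-fold and 19.3-fold against 0.781-fold and 0.697-fold over all genes tested. These were DPT, which organises collagen fibrils, at 99.5-fold and 26.3-fold, FBLN2 at 15.3-fold and 15.5-fold, the lipid carrier APOD at 29.3-fold and 9.42-fold, and the WNT modulator SFRP2 at 6.29-fold and 23.2-fold. MFAP5, SEMA3C and ADH1B, often named with PI16, were at 0 molecules in both sections, which allows up to 0.0202 per 10000 over the tissue of NHP1 and 0.0372 over that of NHP2. APOD, at 98.7 per 10000 in the sclera of NHP1 and 10.9 in that of NHP2, was higher in NHP1, as PLA2G2A was.

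In the IGF axis 4 of 5 tested genes in NHP1 and 4 of 4 in NHP2 were at least 2-fold higher in the sclera than in the retina, beside 7.68% and 12.4% of all genes tested. IGF2, the ligand that IGFBP6 prefers, was at 11.8 per 10000 in the sclera and 21.4 in the choroid of NHP1, and at 9.40 and 10.4 in NHP2. IGFBP5 was at 16.05 and 15.2 in the 2 scleras, IGFBP2 at 1.23 and 5.04, and IGFBP7 was highest in the choroid of both animals at 13.1 and 13.8.

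Of the gelsolin family, CAPG was 12.2-fold (6.49 to 22.9) and 8.30-fold (4.57 to 15.7) higher in the sclera than in the retina, and FLII was at 1.72-fold (0.857 to 3.16) and 1.90-fold (1.08 to 3.25). Of the CAP family only CRISPLD2 was tested, at 26.2-fold and 33.4-fold. None of the phospholipase A2 genes beside PLA2G2A reached the count needed. SCARA3 was 5.14-fold (3.22 to 8.01) and 14.3-fold (9.75 to 21.5) higher in the sclera than in the retina, and its choroidal level was 0.364-fold and 0.338-fold of the scleral one, the reverse of SCARA5. Ferritin, the ligand of SCARA5, was broadly present, with FTL at 13.6, 48.8 and 30.2 per 10000 in the retina, choroid and sclera of NHP1 and 15.4, 25.3 and 22.3 in NHP2.

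Markers of other tissues that can adhere to the sclera were measured in the same spots. Skeletal muscle markers summed to 0.409 per 10000 in the sclera of NHP1 and 0.303 in that of NHP2, and 5 and 6 of the 11 genes in the reference were at 0. Adipocyte markers had 0 molecules in both scleras, which allows up to 0.307 and 0.182 per 10000. Macrophage markers summed to 5.32 and 6.49 in the sclera and 11.1 and 8.45 in the choroid, with C1QB the only gene of that list tested. Of the arachnoid list PTGDS was the only gene tested, and the list summed to 109.8 per 10000 in the sclera of NHP1 and 320.4 in that of NHP2, a difference in the direction of IGFBP6 and PI16 whose part in their levels was not tested.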

How the data were processed

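Per the labels and the study's methods, fresh-frozen punches were sectioned and processed with Visium, and the reads were counted with Space Ranger 2.1.0 on Mmul_10 with the transgene sequences added. What the authors deposited is an unnormalized matrix of UMI counts covering all array positions, together with the position of each spot. One passage of the extract protocol also speaks of prior fixation in PFA. From these counts, tissue spots were clustered without the 5 members (scanpy 1.11.5, leidenalg 0.10.2, resolution 1, 2000 variable genes, 20 components, 15 neighbours), and regions were named from marker lists. Levels are summed UMIs per 10000 summed UMIs. A gene was tested with at least 50 UMIs in a section, or in the summed layer of both sections between animals, and called at 2-fold. Spots with at least 200 UMIs entered correlations and thinning. Intervals are 95%, and a count of 0 was taken to allow 3. The sections share 4341 of 4818 and 4497 barcodes, which mark array positions. Members and lists were chosen with earlier results of these data known. Named genes were the 5 members, the 5 genes most like IGFBP6 and GSN over both sections, and listed relatives. Alternatives changed clustering, layers, scaling, spot filters and pieces. Scripts were tested on simulated data. Python 3.11.15, numpy 2.4.6, pandas 2.3.3, scipy 1.17.1 and matplotlib 3.10.9 were used.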

Additional observations from a re-analysis of the deposited data

Results flagged for a closer look

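PI16 lay in opposite directions across the sclera of the animals. Its level beyond 2 spot spacings from the inner layers was 5.42-fold that within them in NHP1, over all pieces, and 0.574-fold in NHP2. In NHP1 all outer spots lay in piece 1, while only 27 of the 67 inner spots did. Within piece 1 alone the ratio was 3.83 (2.62 to 5.77). The lipid carrier APOD, from the list of adventitial fibroblast genes, was at 0.760-fold in the choroid relative to the sclera of NHP1 and at 1.69-fold in NHP2. Each was singled out because the ratio fell on opposite sides of 1 in the animals with intervals that exclude 1. With 1 section per animal neither difference was tested.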

How the results depend on the processing

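No paired analysis was possible because each animal gave 1 section, so the groups share only replicate number 1 and a single pair leaves no block to fit. Of the alternative values for the main ratios, 56 stayed within the counting interval, 31 moved and 2 reversed. All sclera to retina ratios of the 5 genes stayed above 1. IGFBP6 in NHP1 (33.6) came to 16.8 with equal weight per spot, 7.55 as UMIs per spot, 28.9 without the 5% of spots richest in it, 51.9 and 10.6 in pieces 1 and 2 and 20.01 without the CHAD-led region. GSN in NHP1 (24.5) came to 15.9, 5.50, 38.5, 11.8 and 19.8 for equal weight, UMIs per spot, pieces 1 and 2 and without that region, and 21.2 with layers set per spot from marker sums. IGFBP6 in NHP2 (72.7) came to 40.3, 6.40 and 57.9 for equal weight, UMIs per spot and without the richest spots. It came to 51.1 in piece 1 and 91.7 without the retinal region holding pigment epithelium markers. GSN in NHP2 (28.5) came to 17.5, 2.51, 24.98, 10.7 and 40.2 under the same changes and 33.6 with marker layers. The choroid to sclera ratio of SCARA5 in NHP1 (2.74) reversed to 0.305 with marker layers and was 6.27 as UMIs per spot. In NHP2 (2.37) it was 1.10 with marker layers, 1.13 with equal weight and reversed to 0.78 as UMIs per spot. In the sclera, NHP2 over NHP1 for IGFBP6 (2.36) and PI16 (3.82) came to 3.42 and 6.57 with marker layers and 3.96 and 5.97 without the CHAD-led region, and NHP1 over NHP2 for PLA2G2A (6.10) came to 3.20 with marker layers. The cause of each move was not tested. Shallow scleral spots limit SCARA5 and PLA2G2A, with 20 and 34 molecules where they were fewest.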
